A study of Mus musculus with 8 samples.

Results

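The genes examined here encode the nuclear pore complex and the soluble machinery that carries cargo through it: 25 nucleoporins, 5 proteins of the RAN cycle and 22 transport receptors, made up of 5 importin alpha genes, 10 genes of the importin beta family and 7 exportins. The 52 genes were taken by symbol from the 54838 Ensembl genes in the count files, through the GENCODE M21 annotation of GRCm38. All 52 were found and all 52 passed the filter on low counts, among 12405 genes tested. The cells were murine *iMLL-AF9* leukemic cells, in which the *MLL-AF9* fusion oncogene is a transgene switched on by doxycycline. They were exposed either to IOX5, an inhibitor of the HIF prolyl hydroxylases such as PHD2, or to DMSO, the vehicle, and 4 RNA samples were sequenced for each treatment. All 8 samples were labeled as leukemic stem cells of bone marrow with genotype WT, so the fusion oncogene was shared by both groups. The dose and the duration of treatment are not given for these samples. Nor is it given whether the 4 numbered replicates of a group came from separate animals or cultures, so the p-values measure the spread between these samples, which may be technical.

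Nuclear pores are channels through the nuclear envelope, built from nucleoporins that form a scaffold, anchor it in the membrane, line the channel and extend filaments into the cytoplasm and a basket into the nucleus. Importins bind cargo in the cytoplasm and let it go when RAN bound to GTP meets them in the nucleus, whereas exportins bind their cargo together with RAN-GTP and release it in the cytoplasm once the GTP is hydrolyzed. The direction of traffic is set by RCC1, which loads RAN with GTP on chromatin, and by RANGAP1, which triggers hydrolysis outside the nucleus. Several of these genes are familiar from leukemia, as *NUP98* and *NUP214* are fused to other genes in patients and the exportin XPO1 is a drug target.

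Reads assigned to genes numbered 12343770 to 14116054 in a DMSO sample and 11351507 to 12708888 in an IOX5 sample. Over the 8 samples the 52 genes received from 1391 reads (*Ipo4*) to 79704 reads (*Kpnb1*). Levels are given as CPM, the count scaled to a common library size with TMM factors. Fold changes are log2 ratios of IOX5 to DMSO from edgeR's quasi-likelihood test. A gene was called when its Benjamini-Hochberg adjusted p over the 12405 genes was under 0.05. The same test was also run with the replicate number as a block, since like-numbered samples of the groups resembled each other. Adjusted p-values with this block are given for members of the set whose call it changes.

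The labeled cell type was checked against marker genes. In the list of 10 progenitor and leukemia genes, *Hoxa9* lay between 219.9 and 292.5 CPM and *Meis1* between 96.4 and 126.9 CPM. The receptor gene *Flt3* was close to absent, at 0.467 to 4.68 CPM. *Hoxa10* had 60.0, 75.1, 31.0 and 33.6 CPM in DMSO replicates 1 to 4 and 58.1, 80.8, 29.5 and 30.4 CPM in IOX5 replicates 1 to 4, and so was higher in numbers 1 and 2 than in numbers 3 and 4 of both groups. The stem and progenitor marker *Cd34* differed both between replicate numbers and between treatments. It had 26.0, 23.2, 133.1 and 153.0 CPM in DMSO replicates 1 to 4 and 40.4, 35.4, 225.3 and 230.9 CPM in IOX5 replicates 1 to 4. Samples 1 and 2 of each group stood apart from samples 3 and 4, and within each number the IOX5 sample was the higher. The log2 fold change of *Cd34* was 0.67 (edgeR adjusted p = 0.689), and with the block 0.65 with a standard error of 0.066 (adjusted p = 7.22e-05). *Kit*, the stem cell factor receptor, had 0.39 (edgeR adjusted p = 0.489) and with the block 0.40 (adjusted p = 0.00259). The counts over all 52 genes were therefore also obtained within numbers 1 and 2 and within numbers 3 and 4.

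Transcripts of the nuclear transport machinery were lower with IOX5 across nearly the whole set. Of the 52 genes, 51 had a log2 fold change below 0, compared with 47.2% of all genes tested, and their median was -0.22 beside a median of 0.017 over all genes. The test called 7 of the 52 genes lower and 0 higher, where 1.25% of all genes were called lower and 0.774% higher. The shares of all genes are not matched for level: the median was 151.8 CPM for the 52 genes and 32.5 CPM for all genes tested. The part of this difference in the counts was not tested. The 7 were the nucleoporin genes *Tpr*, *Nup107* and *Nup62* and the receptor genes *Ipo5*, *Kpnb1*, *Tnpo1* and *Xpo1*. With the replicate block 29 of the 52 were called lower and 0 higher, beside 9.43% and 11.2% of all genes, and these 29 included all 7. DESeq2 called 23 lower, and each of the 23 was among the 29. Beside them stood 5.75% of the 10471 genes to which DESeq2 gave an adjusted p. All shares given for DESeq2 are of these 10471 genes. In 30 of the 52 genes all IOX5 samples were below all DMSO samples, which was the case for 8.3% of all genes. For a single gene separate groups give p = 0.0286 in an exact permutation test (two-sided, 70 ways to assign the samples), the smallest p that 4 against 4 samples allow.

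These calls depended on single libraries. The number of the 52 genes called lower without the block was 0 when DMSO replicate 1, 2, 3 or 4, IOX5 replicate 1 or IOX5 replicate 3 was left out, 1 without IOX5 replicate 2 and 13 without IOX5 replicate 4. Of all genes, 0.605% were called lower without IOX5 replicate 2, 2.64% without IOX5 replicate 4, 0.279% without IOX5 replicate 1 and at most 0.0558% in the other fits. Of the 52, 34 were lower at an unadjusted p under 0.05 with all samples, beside 11.2% of all genes. In the fits without 1 sample this was 25 to 37, beside 6.97% to 13.1% of all genes, and the median stayed between -0.26 and -0.18. Within numbers 1 and 2 the median was -0.29 and 52 genes were below 0, with 0 called by edgeR and 28 lower at an unadjusted p under 0.05, beside 6.61% of all genes. Within numbers 3 and 4 it was -0.20 and 49 genes were below 0, with 4 called lower, beside 2.09% of all genes, and 27 lower at an unadjusted p under 0.05, beside 10.1%.

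Taken sample by sample, the summed level of the 52 genes was 11537, 12022, 11858 and 12013 CPM in DMSO replicates 1 to 4 and 9745, 9134, 10321 and 10260 CPM in IOX5 replicates 1 to 4. Every IOX5 sample was below every DMSO sample. The 52 genes held 1.18% ± 0.0134 of the reads on genes in the DMSO group and 0.990% ± 0.0584 in the IOX5 group (SD, n = 4 each). Between samples of the same number, the median log2 difference of the 52 genes was -0.21, -0.33, -0.16 and -0.22 for numbers 1 to 4. All of the pairs showed the decrease in 45 genes, 3 of the 4 pairs in 5 genes and 2 of the 4 in 2 genes. In bulk samples such as these, fewer cells of a type and less RNA per cell cannot be told apart.

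**Figure D1:**
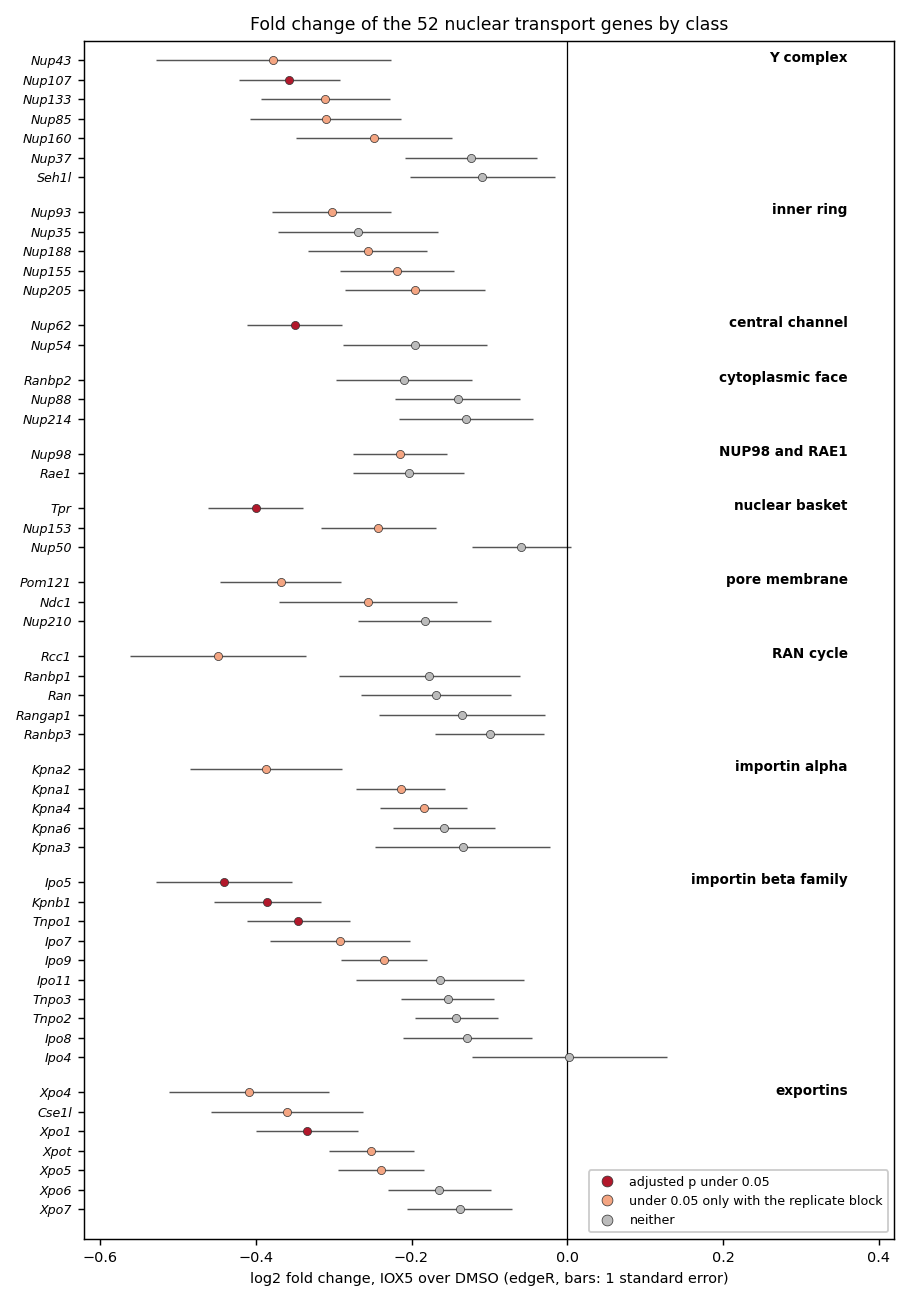
Log2 fold change of IOX5 over DMSO for each of the 52 genes, grouped by class, with bars of 1 standard error from edgeR and colors for genes called by edgeR without the block, by edgeR only with it, or in neither fit. *Ipo4* alone lies right of 0, and the 7 genes called without the block lie between -0.44 and -0.33.

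The Y complex, the outer scaffold ring that is among the first parts of a pore to assemble, had a median log2 fold change of -0.31 over 7 genes, all below 0. It held 1 gene called without the block and 5 with it, beside 1.25% and 9.43% of all genes called lower. Its groups did not overlap in 3 genes, beside 8.3% of all genes with every IOX5 sample below every DMSO sample. *Nup107* (ENSMUSG00000052798, chr10:117750621-117792705, minus strand), a core scaffold subunit, was the called gene. It had 148.8, 162.2, 150.6 and 156.9 CPM in DMSO replicates 1 to 4 and 130.9, 112.2, 116.9 and 122.9 CPM in IOX5 replicates 1 to 4. The groups were separate, and the mean fell by 21.9% (log2 fold change -0.36, standard error 0.064, edgeR adjusted p = 0.0360). *Nup43* had a log2 fold change of -0.38 with a standard error of 0.151 and overlapping groups. It was not called without the block (edgeR adjusted p = 0.210) and was called with it (0.0199). *Nup85*, *Nup133* and *Nup160*, further scaffold subunits, had -0.31, -0.31 and -0.25, and were likewise called by edgeR with the block (adjusted p = 0.00712, 0.00744 and 0.0131) and not without it. *Nup133* was also called by DESeq2 (adjusted p = 0.0239). *Nup37* and *Seh1l*, peripheral subunits of the ring, had the smallest values in the class at -0.12 and -0.11, and neither was called with or without the block.

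The inner ring, which ties the scaffold to the membrane and to the channel, had a median of -0.26 over 5 genes, with 0 called by edgeR without the block (4 had an unadjusted p under 0.05), 4 with it and 2 by DESeq2. Of all genes, edgeR called 1.25% lower without the block and 9.43% with it, and 11.2% were lower at that unadjusted p. DESeq2 called 5.75% lower. *Nup93* (ENSMUSG00000032939, chr8:94214564-94317227, plus strand), the linker on which the channel nucleoporins are anchored, had the smallest p. Its DMSO samples had 140.4, 160.1, 146.2 and 155.3 CPM and its IOX5 samples 111.9, 117.0, 122.9 and 136.4 CPM. These ranges did not meet, and the log2 fold change was -0.30 with a standard error of 0.076 (edgeR adjusted p = 0.0747, and 0.00657 with the block). DESeq2 called the gene (adjusted p = 0.0130). *Nup35*, *Nup188*, *Nup155* and *Nup205* ranged from -0.27 to -0.20, and *Nup35* was the member of the ring not called with the block. The edgeR adjusted p with the block was 0.0136 for *Nup188*, 0.0222 for *Nup155* and 0.0456 for *Nup205*, beside 0.113, 0.145 and 0.266 without it. Of these, *Nup188* was also called by DESeq2 (adjusted p = 0.0475).

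In the central channel, *Nup62* (ENSMUSG00000109511, chr7:44816088-44830812, plus strand) encodes a nucleoporin with the phenylalanine-glycine repeats that receptors touch on their way through. It had 204.2, 219.6, 200.9 and 208.9 CPM with DMSO and 153.8, 162.9, 160.2 and 177.0 CPM with IOX5. All IOX5 samples were below all DMSO samples, and the mean fell by 21.5% (log2 fold change -0.35, standard error 0.061, edgeR adjusted p = 0.0320). Its partner *Nup54* had a log2 fold change of -0.20 with overlapping groups and was not called.

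At the cytoplasmic face none of the 3 genes was called by edgeR, with or without the block, or by DESeq2, and 1 of 3 had an unadjusted edgeR p under 0.05, on the lower side as for 11.2% of all genes. The class had the smallest median, -0.14. *Ranbp2* (ENSMUSG00000003226, chr10:58446920-58494356, plus strand), which encodes the long filament protein that binds RAN and also acts as a SUMO ligase, had the lowest p of the class. It had 616.9, 590.5, 607.5 and 618.9 CPM in DMSO replicates 1 to 4 and 578.5, 481.6, 585.3 and 459.2 CPM in IOX5 replicates 1 to 4. The IOX5 samples were uneven, as replicates 1 and 3 lay just under the DMSO range and replicates 2 and 4 far under it. The log2 fold change was -0.21 with a standard error of 0.087 (edgeR adjusted p = 0.221, and 0.0529 with the block). *Nup88* and *Nup214*, which form a complex at this face, had -0.14 and -0.13.

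*Nup98* (ENSMUSG00000063550, chr7:102119398-102210176, minus strand) and *Rae1* encode partners that lie on both faces of the pore and take part in mRNA export. *Nup98* had 205.5, 202.9, 208.3 and 210.1 CPM with DMSO and 173.1, 178.1, 194.6 and 166.7 CPM with IOX5. The DMSO samples were close together and all above the IOX5 samples. By edgeR the gene was not called without the block (adjusted p = 0.0970) and was called with it (adjusted p = 0.0311). DESeq2 called it without a block (adjusted p = 0.0219). *Rae1* had a log2 fold change of -0.20 and separate groups, and was not called in either fit.

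The 3 genes of the nuclear basket ranged from -0.40 to -0.06. *Tpr* (ENSMUSG00000006005, chr1:150392838-150449935, plus strand), the coiled-coil protein that makes up the basket filaments, had the smallest p of the 52 genes. It had 562.9, 625.8, 559.5 and 548.5 CPM in the DMSO samples and 440.8, 445.5, 442.9 and 411.2 CPM in the IOX5 samples. The distance between the groups exceeded the range within each, and the mean fell by 24.2% (log2 fold change -0.40, standard error 0.061, edgeR adjusted p = 0.0254). *Nup153*, which binds the basket to the pore, had -0.24 and was called by edgeR with the block (adjusted p = 0.0238), not without it (0.117), and by DESeq2 (0.0463). *Nup50*, a mobile basket protein that helps importins release cargo, had -0.06 with overlapping groups, and its value was lower with IOX5 in 2 of the 4 pairs.

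Among the membrane proteins that anchor the pore, *Pom121* (ENSMUSG00000053293, chr5:135376141-135394546, minus strand) lay just outside the threshold by edgeR without the block. Its DMSO samples had 153.6, 155.8, 131.9 and 131.6 CPM and its IOX5 samples 104.2, 110.6, 118.0 and 111.2 CPM. The groups were separate, and the differences were larger for numbers 1 and 2 (-0.56 and -0.49 on the log2 scale) than for numbers 3 and 4 (-0.16 and -0.24). Its log2 fold change was -0.37 with a standard error of 0.078 (edgeR adjusted p = 0.0505, and 0.00496 with the block). DESeq2 called the gene (adjusted p = 0.00143). *Ndc1* had -0.26 and was called with the block (edgeR adjusted p = 0.0187, and 0.252 without it), and *Nup210* had -0.18 and was not.

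The 5 genes of the RAN cycle did not move evenly. *Rcc1* (ENSMUSG00000028896, chr4:132331919-132353605, minus strand), the exchange factor that loads RAN with GTP, had the lowest log2 fold change of the 52 genes, -0.45 with a standard error of 0.113. It had 168.4, 199.9, 174.0 and 179.4 CPM with DMSO and 116.6, 114.6, 137.4 and 160.3 CPM with IOX5. The ranges were separate by a narrow gap, set by IOX5 replicate 4. By edgeR the gene was called with the block (adjusted p = 0.00329) but not without it (0.0745). DESeq2 called it without a block (adjusted p = 0.00885). Exons of *Rcc1* share 135 bases on the same strand with the noncoding gene *Snhg3*, which had 4168 reads beside 15774 for *Rcc1*.

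*Ran* itself (ENSMUSG00000029430, chr5:129020069-129024323, plus strand), the small GTPase, had 595.8, 666.0, 635.0 and 649.6 CPM in DMSO replicates 1 to 4 and 529.0, 496.2, 561.7 and 678.4 CPM in IOX5 replicates 1 to 4. IOX5 replicates 1 to 3 lay below every DMSO sample and replicate 4 above every one. The gene was not called in either fit (log2 fold change -0.17, standard error 0.096, edgeR adjusted p = 0.368, and 0.119 with the block). *Ranbp1*, *Rangap1* and *Ranbp3*, which assist or trigger GTP hydrolysis or serve as an export cofactor, had -0.18, -0.14 and -0.10 and were not called.

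IOX5 replicate 4 was the highest IOX5 sample for all 5 genes of the RAN cycle, and 4 of the 5 were within or above the DMSO range there. The mean log2 CPM of the class in IOX5 replicates 1 to 4 differed from its DMSO mean by -0.35, -0.36, -0.18 and 0.04. The other 10 classes were below their DMSO mean in all 4 IOX5 samples. As a share of the summed level per kilobase of the 5 genes, *Rcc1* made up 9.99% ± 0.396 with DMSO and 8.34% ± 0.290 with IOX5 (SD, n = 4 each). The lowest DMSO share, 9.69%, was above the highest IOX5 share, 8.71%, so that *Rcc1* lay lower relative to the other 4 genes in IOX5 replicate 4 as well. The share of *Ran* was 51.3% ± 0.333 and 52.1% ± 0.530.

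**Figure D2:**
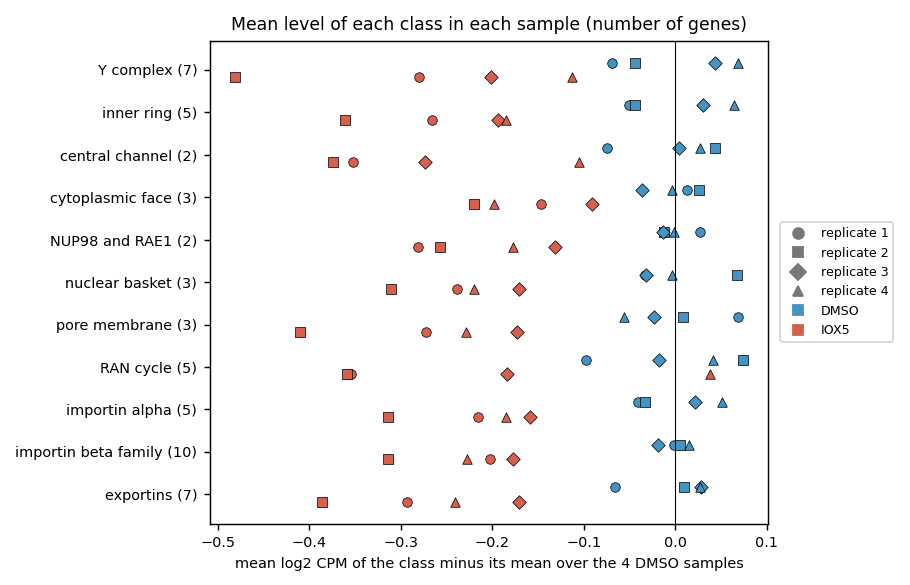
Mean log2 CPM of each class in each of the 8 samples, as the difference from the mean of its 4 DMSO samples, with a symbol for each replicate number. The RAN cycle of IOX5 replicate 4, at 0.04, is the red point that falls among the DMSO samples, and IOX5 replicate 2 is lowest in the Y complex at -0.48.

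Importin alpha proteins are adaptors that recognize the classical nuclear localization signal and join cargo to importin beta. The 5 genes had a median of -0.18, with 0 called by edgeR without the block (4 had an unadjusted p under 0.05), 3 with it and 3 by DESeq2, and the groups were separate in 4. Of all genes, edgeR called 1.25% lower without the block and 9.43% with it, and 11.2% were lower at that unadjusted p. DESeq2 called 5.75% lower, and 8.3% of all genes had every IOX5 sample below every DMSO sample. *Kpna2* (ENSMUSG00000018362, chr11:106988629-106999541, minus strand), an adaptor known to be abundant in dividing cells, had the lowest value of the class. It had 249.2, 252.8, 273.3 and 279.2 CPM with DMSO and 188.2, 179.9, 195.5 and 243.1 CPM with IOX5. The highest IOX5 sample, replicate 4, fell short of the lowest DMSO sample by a small margin, and the log2 fold change was -0.39 with a standard error of 0.097 (edgeR adjusted p = 0.0745, and 0.00171 with the block). *Kpna1* and *Kpna4* had -0.21 and -0.18 and were called with the block (edgeR adjusted p = 0.0326 and 0.0482), while *Kpna6* and *Kpna3* had -0.16 and -0.13 and were not. The 3 genes called by DESeq2 were *Kpna2*, *Kpna1* and *Kpna4* (adjusted p = 0.00907, 0.0185 and 0.0388).

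The importin beta family, whose members bind cargo or an adaptor and ferry it through the pore, held 3 of the 7 genes called without the block. These were 3 of its 10 genes, beside 1.25% of all genes called lower. *Kpnb1* (ENSMUSG00000001440, chr11:97159714-97187881, minus strand) encodes importin beta, the carrier for the classical pathway. The DMSO samples had 854.0, 963.3, 868.4 and 894.1 CPM of *Kpnb1* and the IOX5 samples 651.9, 637.6, 711.7 and 739.3 CPM. The decrease was present in each pair and ranged from -0.60 for number 2 to -0.27 for number 4 on the log2 scale. The mean fell by 23.4% (edgeR adjusted p = 0.0346).

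*Ipo5* (ENSMUSG00000030662, chr14:120911224-120947999, plus strand), an importin known for carrying ribosomal proteins and histones, had 490.7, 567.1, 521.0 and 529.3 CPM with DMSO and 350.3, 359.8, 395.1 and 448.4 CPM with IOX5. Replicate 4 was again the highest IOX5 sample, still under the DMSO range. Its log2 fold change of -0.44, with a standard error of 0.087, was the largest decrease among the 7 called genes (edgeR adjusted p = 0.0460). *Tnpo1* (ENSMUSG00000009470, chr13:98839019-98926384, minus strand), the transportin that imports RNA-binding proteins, had 767.9, 759.1, 727.7 and 737.4 CPM with DMSO and 636.7, 595.2, 595.8 and 527.2 CPM with IOX5. Here replicate 4 was the lowest IOX5 sample, in contrast to *Ipo5*, and the gene had a log2 fold change of -0.35 with a standard error of 0.066 (edgeR adjusted p = 0.0413).

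Of the remaining 7 genes of this family, *Ipo7* (-0.29) and *Ipo9* (-0.24) were called with the block (edgeR adjusted p = 0.00881 and 0.0189) and the others were not. DESeq2 also called *Ipo7* and *Ipo9* (adjusted p = 0.0412 and 0.00337). *Tnpo2* and *Tnpo3* had -0.14 and -0.15 with separate groups, and *Ipo11* and *Ipo8* had -0.16 and -0.13 with overlapping groups. *Ipo4* (ENSMUSG00000002319, chr14:55625400-55635957, minus strand) was the exception among the 52. It had 15.7, 14.5, 11.5 and 13.5 CPM with DMSO and 14.3, 15.1, 13.3 and 12.7 CPM with IOX5, so the ranges lay over each other. Its log2 fold change of 0.0026 had a standard error of 0.125 (edgeR adjusted p = 0.994) and turned below 0 when some libraries were left out. *Ipo4* shares 2583 exon bases on the same strand with the gene model Gm49378, listed at 0 reads, and a read that falls on both models is counted for neither, so its level may be understated.

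Exportins carry proteins, tRNA or pre-miRNA out of the nucleus. The 7 genes were all below 0 with a median of -0.25. Without the block 1 was called and with it 5, beside 1.25% and 9.43% of all genes called lower. *Xpo1* (ENSMUSG00000020290, chr11:23256041-23298249, plus strand), the general exporter of proteins with a leucine-rich export signal, had 403.6, 456.9, 457.9 and 431.7 CPM with DMSO and 346.2, 320.7, 366.5 and 354.5 CPM with IOX5. The groups were separate, and the mean fell by 20.7% (log2 fold change -0.33, standard error 0.065, edgeR adjusted p = 0.0443). *Xpo4* had a larger fold change of -0.41 with a standard error of 0.103. *Cse1l*, which returns importin alpha to the cytoplasm, had -0.36, *Xpot*, the tRNA exporter, -0.25, and *Xpo5*, the pre-miRNA exporter, -0.24. These 4 were called by edgeR with the block (adjusted p = 0.00117, 0.00496, 0.0130 and 0.0165), not without it, and by DESeq2, and *Xpo6* and *Xpo7* (-0.16 and -0.14) by none of these.

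**Figure D3:**
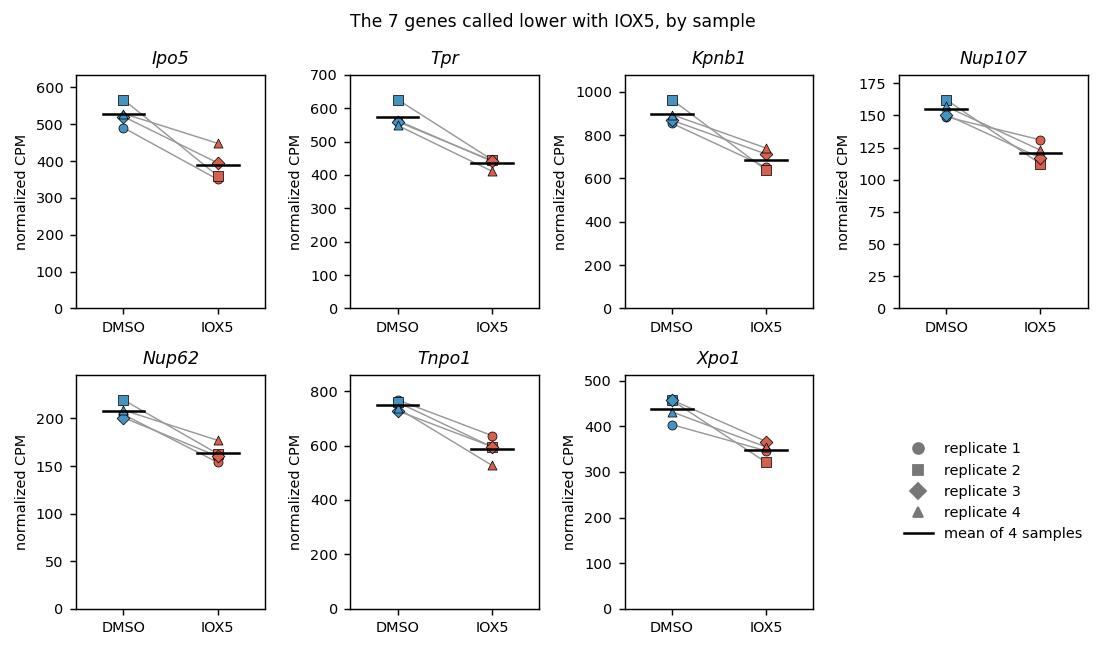
Normalized CPM of the 7 genes called without the block in each of the 8 samples, with a line joining DMSO and IOX5 samples of the same replicate number and a bar at each group mean. In each panel the 4 IOX5 points lie below the 4 DMSO points, as for *Tpr*, where the highest IOX5 sample had 445.5 CPM and the lowest DMSO sample 548.5 CPM.

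The start-site regions of these genes were read from RefSeq (GRCm38.p6), as windows from 250 bases before the annotated start to 50 bases after it. Windows were found for 41 of the 52 genes, 48 windows in all, including all 7 called genes. The windows of a channel nucleoporin, a basket protein, an importin and an exportin among the called genes are printed to show how far genes that moved together share short promoter motifs. Lower case marks the window and capitals a match, on either strand, to CCAAT, to ACGTG or to the motif of NRF1. CCAAT is the box bound by NF-Y, and the NRF1 motif is GCGCA, any base and GCGC in a row. ACGTG is the form of the HIF response element core that begins with A. The form that begins with G, GCGTG, was not searched and is not marked. A CCAAT box on the reverse strand reads ATTGG, and ACGTG there reads CACGT.
*Nup62*, chr7:44815838-44816137, plus strand: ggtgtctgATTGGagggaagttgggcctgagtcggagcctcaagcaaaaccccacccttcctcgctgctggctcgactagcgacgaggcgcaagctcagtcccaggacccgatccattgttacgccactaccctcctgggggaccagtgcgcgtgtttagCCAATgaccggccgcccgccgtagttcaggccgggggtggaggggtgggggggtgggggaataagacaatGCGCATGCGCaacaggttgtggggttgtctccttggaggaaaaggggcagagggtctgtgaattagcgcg
*Tpr*, chr1:150392588-150392887, plus strand: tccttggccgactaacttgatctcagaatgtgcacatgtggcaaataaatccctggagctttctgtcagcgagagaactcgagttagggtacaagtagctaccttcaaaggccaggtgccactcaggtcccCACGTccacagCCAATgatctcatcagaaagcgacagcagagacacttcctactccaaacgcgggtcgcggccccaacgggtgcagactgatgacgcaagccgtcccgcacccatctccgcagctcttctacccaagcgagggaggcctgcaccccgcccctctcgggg
*Kpnb1*, chr11:97187843-97188142, minus strand: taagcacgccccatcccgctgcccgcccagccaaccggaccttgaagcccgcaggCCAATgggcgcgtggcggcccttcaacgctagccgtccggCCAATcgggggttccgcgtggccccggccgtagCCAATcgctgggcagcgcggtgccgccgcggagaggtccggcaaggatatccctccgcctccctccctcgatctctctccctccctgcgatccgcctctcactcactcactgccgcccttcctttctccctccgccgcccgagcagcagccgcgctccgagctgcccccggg
*Xpo1*, chr11:23255791-23256090, plus strand: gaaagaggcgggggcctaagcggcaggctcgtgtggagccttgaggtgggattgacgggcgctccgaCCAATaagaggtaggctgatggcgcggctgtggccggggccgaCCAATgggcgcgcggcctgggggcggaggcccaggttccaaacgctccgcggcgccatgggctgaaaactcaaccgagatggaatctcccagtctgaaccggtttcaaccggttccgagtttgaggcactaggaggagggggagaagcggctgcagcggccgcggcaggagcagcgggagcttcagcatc

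A CCAAT box was the motif these windows shared, with 3 matches in *Kpnb1*, 2 each in *Xpo1* and *Nup62* and 1 in *Tpr*. It was present in 23 of the 48 windows (47.9%), compared with 37.4% of all 32851 windows in the table and 38.3% of the 11874 windows of genes tested. Of the 7 called genes 6 had it, and *Nup107* did not. ACGTG was found in 15 of the 48 windows (31.2%), against 19.6% of all windows and 26.1% of those of genes tested, and in 1 of the 7 called genes, *Tpr*. Windows without ACGTG may hold GCGTG, the other form of the HIF core, which was not counted. The E-box CACGTG, which MYC binds and which contains ACGTG, was found in 9 windows (18.8%), against 7.15% and 10.2%, among them those of *Ran*, *Ranbp2*, *Xpot* and *Ipo4*, and in 0 of the 7 called genes. The NRF1 motif was found in 8 windows (16.7%), against 4.6% and 10.2%, and in 2 of the 7, *Nup62* and *Nup107*. These are matches of letters in a fixed window, and no binding was measured.

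The members of a class differed in how much transcript they contributed, and genes were compared for this purpose by CPM per kilobase of exon. In the DMSO group the level per kilobase ranged from 2.96 (*Ipo4*) to 241 (*Ran*), with a median of 27.7 over the 52 genes. In the RAN cycle the order was *Ran*, *Ranbp1* (111.3), *Rangap1* (54.8), *Rcc1* (46.9) and *Ranbp3* (15.6), and the samples of *Rangap1* and *Rcc1* overlapped. In the importin beta family it was *Kpnb1* (135.8), *Ipo5* (87.8), *Tnpo1* (66.7) and *Ipo7* (38.8), with no overlap between neighbors down to *Ipo4*. *Kpnb1* and *Ipo5* stayed the first 2 of this family when the length of the longest transcript was used, whereas *Ipo7* (91.0) then stood above *Tnpo1* (88.5). *Tnpo3* (45.0) likewise stood above *Tnpo2* (30.4) and *Ipo9* (22.7) by that length.

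*Kpna2* led the importin alpha genes at 91.8, followed without overlap by *Kpna3* at 33.5. It provided 50.1% ± 0.565 of the class with DMSO and 46.2% ± 3.34 with IOX5 (SD, n = 4 each), and these shares overlapped, as IOX5 replicate 4 had 51.1%. *Xpo1* led the exportins at 60.9, and the next 2, *Xpot* (49.8) and *Cse1l* (48.6), overlapped. By the longest transcript *Cse1l* (70.3) stood above *Xpot* (50.1). Among nucleoporins the highest levels per kilobase were those of *Nup62* (73.0), *Tpr* (54.7) and *Ranbp2* (51.9), each first in its class. By the longest transcript their values were 76.6, 76.8 and 63.3, and *Nup85* (68.2) then exceeded *Ranbp2*. In the Y complex *Nup85* (44.9) and *Nup107* (40.2) stood above *Seh1l* (27.8), while *Nup160*, *Nup43*, *Nup133* and *Nup37* lay between 12.2 and 15.1, each overlapping its neighbor. By the longest transcript the last 4 were farther apart and in another order, at 23.2, 20.4, 15.2 and 28.1. The leading gene was the same in 11 of 11 classes when the length of the longest transcript replaced the exon length. Lower ranks changed in some classes, so they depend on the length used.

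**Figure D4:**
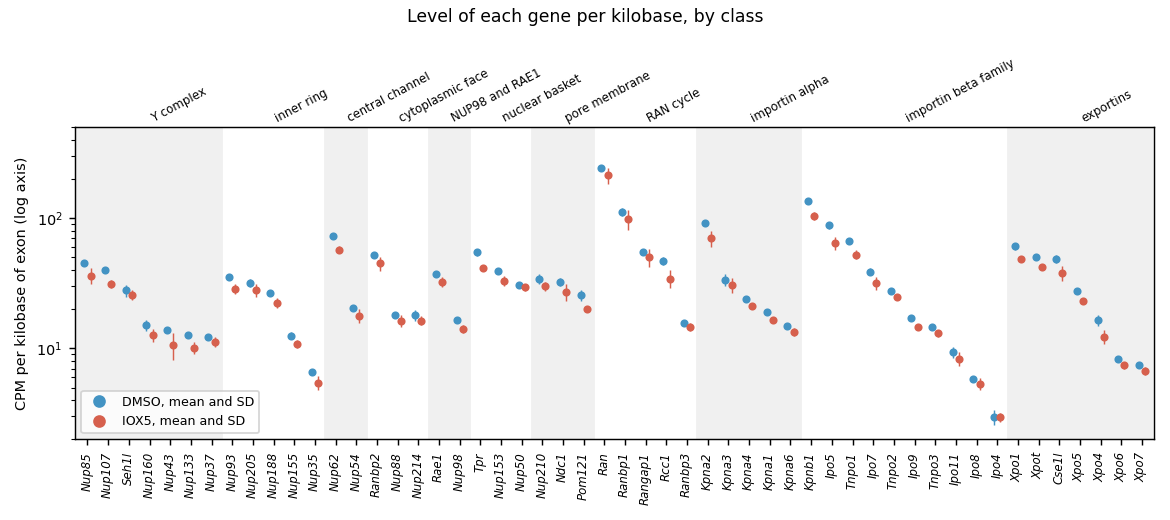
CPM per kilobase of exon on a log axis for each of the 52 genes, ordered within class by the DMSO mean, with DMSO in blue, IOX5 in red and bars of 1 SD over 4 samples. *Ran* is highest at 241 with DMSO and *Ipo4* lowest at 2.96, and the order of the leading genes is visible in each class.

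Other genes of nuclear transport were examined in 4 further lists, of which 60 genes were tested. Of these 46 were below 0 and 14 above, with a median of -0.12, and edgeR called 2 lower without the block, beside 1.25% of all genes, and 10 with it, beside 9.43%. DESeq2 called 9 lower, beside its share of 5.75%, and 15 were lower at an unadjusted edgeR p under 0.05, beside 11.2% of all genes. Whether these lists differed from the 52 genes was not tested. Of 15 further nuclear pore and receptor genes 13 were tested, 9 of which were below 0, with a median of -0.10 and 0 called by edgeR without the block or with it or by DESeq2 (4 had an unadjusted edgeR p under 0.05, all lower). *Nupl1*, the gene of the channel nucleoporin NUP58, was listed at 0 reads, while the gene model Gm49336 that overlaps it had 10811, and it was not tested. The lowest p belonged to *Ahctf1*, which starts pore assembly on chromatin and had 277.6, 294.1, 276.6 and 299.0 CPM with DMSO and 236.9, 246.1, 280.2 and 236.3 CPM with IOX5. Its IOX5 replicate 3 lay within the DMSO range. *Gle1*, an activator of mRNA release at the pore, had a log2 fold change of -0.16 (edgeR adjusted p = 0.168).

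Of 23 mRNA export genes 19 were below 0 and the median was -0.12, with 0 called without the block and 3 with it (edgeR, 3 lower with an unadjusted p under 0.05, and 3 called by DESeq2), beside the 9.43% of all genes called lower with the block. The helicase gene *Ddx39b*, which loads export factors onto mRNA, had 370.8, 384.4, 368.9 and 375.5 CPM with DMSO and 316.1, 322.2, 324.5 and 340.1 CPM with IOX5. *Alyref*, the adaptor it works with, had a log2 fold change of -0.30. Both were called with the block (edgeR adjusted p = 0.0333 and 0.00647). The 9 genes of the SUMO cycle at the pore had a median of -0.08, with 8 below 0, 0 called without the block and 1 with it (edgeR, 2 with an unadjusted p under 0.05, and 1 called by DESeq2). Beside both lists, edgeR called 1.25% of all genes lower without the block and 9.43% with it, and 11.2% were lower at that unadjusted p. DESeq2 called 5.75% lower. The SUMO gene called was *Uba2*, a subunit of the SUMO-activating enzyme, at -0.25 (adjusted p = 0.0590 by edgeR, and 0.0171 with the block), and *Sumo2* had -0.19.

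The nuclear lamina and envelope was a mixed list. Its 15 genes had a median of -0.18, with 10 below 0. Without the block edgeR called 2 lower and 0 higher, beside 1.25% and 0.774% of all genes. At an unadjusted edgeR p under 0.05, 6 were lower and 2 higher, beside 11.2% and 8.98% of all genes. With the block 6 were called lower and 2 higher, beside 9.43% and 11.2%. DESeq2 called 5 lower and 1 higher, beside 5.75% and 4.67%. *Lmnb1*, the B-type lamin, had 348.9, 424.3, 378.8 and 384.0 CPM with DMSO and 251.5, 250.9, 271.7 and 309.3 CPM with IOX5. Its fold change was lower than that of any of the 52 genes, a difference that was not tested (log2 fold change -0.50, standard error 0.087, edgeR adjusted p = 0.0311). *Tmpo*, a lamin-binding protein, had -0.38 (edgeR adjusted p = 0.0443). Without IOX5 replicate 4 the 4 lists together had 7 genes called lower in place of 2, without any other single library 0.

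Genes of the HIF response and of proliferation were examined beside them. HIF target genes were all above 0 (14 of 14, median 0.54). Of these 8 were called higher without the block and 14 with it, beside 0.774% and 11.2% of all genes. *Ankrd37* rose by 1.38 and *Pdk1*, which restrains entry of pyruvate into mitochondria, by 0.67 on the log2 scale (edgeR adjusted p = 0.0143 and 0.0157). The others called were *Bnip3* (0.98), *Pgk1* (0.57), *Kdm3a* (0.55), *P4ha1* (0.53), *Egln1* (0.51) and *Ldha* (0.38). Proliferation genes were all below 0 (16 of 16, median -0.32). Of these 5 were called lower without the block and 14 with it, beside 1.25% and 9.43% of all genes. *Mki67*, the proliferation marker, had 805.0, 860.8, 806.5 and 772.3 CPM with DMSO and 527.6, 506.3, 524.3 and 444.4 CPM with IOX5 (log2 fold change -0.70, edgeR adjusted p = 0.0143). The others were *Plk1* (-0.57), *Rrm2* (-0.51), *Uhrf1* (-0.45) and *E2f8* (-0.38). The summed level of the proliferation genes was lowest in IOX5 replicate 2, the sample in which 29 of the 52 transport genes had their lowest IOX5 value, and its part in their decrease was not tested.

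**Figure D5:**
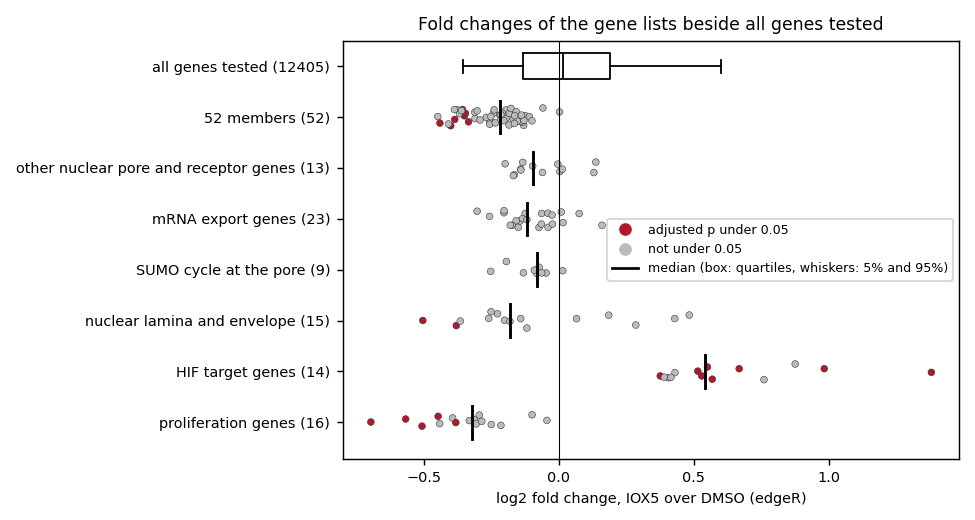
Log2 fold change of IOX5 over DMSO for the 52 genes and for 6 other lists, 1 point per gene with called genes in red and a bar at the median, beside a box for all 12405 genes tested. The 52 genes have a median of -0.22, between those of the mRNA export genes (-0.12) and the proliferation genes (-0.32), and the HIF target genes lie right of 0.

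Markers of several blood cell types had log2 fold changes above 0 with IOX5, and edgeR called none of them without the block. The counts below stand beside 11.2% of all genes called higher with the block, 4.67% by DESeq2 and 8.98% higher at an unadjusted edgeR p under 0.05. The 7 macrophage markers summed to 212.7, 223.6, 164.0 and 193.6 CPM in DMSO replicates 1 to 4 and 259.4, 538.2, 273.1 and 246.4 CPM in IOX5 replicates 1 to 4. All 6 that were tested were above 0, with 0 called without the block and 3 with it (edgeR, 3 with an unadjusted p under 0.05, and 3 called by DESeq2). The smallest p-values were those of *Adgre1* and *Mrc1*, macrophage surface receptors, with log2 fold changes of 1.24 and 1.87 (edgeR adjusted p = 0.0663 and 0.0922, and 0.000185 and 0.000416 with the block). *Csf1r*, the receptor for the macrophage growth factor, had the highest mean in each group. *Adgre1* was above it in IOX5 replicate 1 (87.2 against 56.1 CPM) and IOX5 replicate 2 (170.5 against 165.3 CPM). The complement gene *C1qa* was at or near 0 in every sample (0.706 CPM at most). Every IOX5 sample was above every DMSO sample in this sum, and IOX5 replicate 2 stood far above the rest.

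Granulocyte markers were above 0 in 8 of 8 genes, with 0 called without the block and 6 with it (edgeR, 0 with an unadjusted p under 0.05, and 0 called by DESeq2). Their sum was 1393, 1819, 1242 and 1037 CPM in the DMSO samples and 1602, 2628, 1505 and 1377 CPM in the IOX5 samples. The groups overlapped, but within each number the IOX5 sample was higher. *Elane*, a protease of early granulocytes, had the highest mean in each group. In replicate 2 *S100a8* was above it, at 497.4 against 482.2 CPM with DMSO and 709.3 against 546.9 CPM with IOX5. Mast cell and basophil markers were above 0 in 6 of 6 genes, with 0 called without the block and 6 with it (edgeR, 0 with an unadjusted p under 0.05, and 0 called by DESeq2). Their sum was 268.4, 183.5, 698.4 and 634.3 CPM with DMSO and 327.1, 349.5, 1050 and 855.1 CPM with IOX5. The highest mean was that of *Gata2* with DMSO (119.1 CPM) and of the basophil protease gene *Mcpt8* with IOX5 (157.7 CPM).

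Of the megakaryocyte markers 3 of 3 tested were above 0, with 0 called without the block and 3 with it (edgeR, 1 with an unadjusted p under 0.05, and 1 called by DESeq2). *Ppbp*, a platelet chemokine gene, had the smallest p and a log2 fold change of 1.83 (edgeR adjusted p = 0.0694, and 0.000126 with the block). *Itga2b* was the most abundant and *Gp1bb* was at 0 in every sample. The leukemic progenitor genes, which included *Cd34* and *Kit*, were above 0 in 7 of 10, with 0 called without the block and 6 with it (edgeR, 1 with an unadjusted p under 0.05, and 0 called by DESeq2). Erythroid markers were above 0 in 4 of 4 tested, with 0 called without the block and 1 with it (edgeR, 0 with an unadjusted p under 0.05, and 0 called by DESeq2), at a sum of 32.4 CPM or less. T cell markers were near 0 in all samples, with a mean sum of 0.0601 CPM in the DMSO group. The part of these cell type markers in the decrease of the transport genes was not tested.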

How the data were processed

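RNA was extracted from 8 samples of *iMLL-AF9* cells, poly(A) RNA was made into directional libraries, and single-end reads were sequenced. Per the submitters' processing notes, the tools were cutadapt 1.18, HISAT2 2.2.1 and HTSeq 2.0.1 with the genome GRCm38. The deposited values are raw counts per Ensembl gene, made by the authors library by library without normalization. The genome index was one that includes annotated transcripts, and the release of the annotation given to the counting step is not given in the sources used here. From the values, reads were counted by strand, as *Xist* had 105071 reads and *Tsix* 21. Strand does not resolve genes on the same strand: 10 of the 52 genes share exon bases with such a gene, and 15 with a gene on the opposite strand. The summary lines at the end of each file, which held 20.6% to 22.6% of reads, entered neither the library sizes nor the tests. Of 54838 identifiers, 54723 matched GENCODE M21 and 115 did not.

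The members and all lists were chosen with earlier results of these data known. Counts were filtered with filterByExpr and scaled with TMM (factors 0.988 to 1.03) in edgeR 4.0.16 under R 4.3.3, and IOX5 was compared with DMSO by the quasi-likelihood test over all 12405 genes (common biological coefficient of variation 0.202). Log2 CPM used a prior count of 2. Deviations from the group mean correlated between like-numbered samples, at 0.758, 0.744, 0.732 and 0.636 for numbers 1 to 4 and at most 0.685 between different numbers. The 0.685 was between DMSO replicate 4 and IOX5 replicate 3, and DMSO replicate 3 and IOX5 replicate 4 had 0.617. The pairing was taken from the numbers in the labels and from these values, which do not tell numbers 3 and 4 apart. The steps were tested on simulated data. The alternatives were the replicate block, DESeq2 1.42.0, no filter on low counts, scaling by RLE or upper-quartile factors, and each sample left out in turn. The fits within replicate numbers 1 and 2 and within 3 and 4 were chosen after seeing the data. Values in every sample are given for members called without the block, the member with the smallest p in each class, the member with the highest fold change, and *Nup98*, *Kpnb1*, *Xpo1*, *Ran* and *Rcc1*. In the 4 other transport lists and the HIF target and proliferation lists, the genes named are the 2 with the smallest p and all called. The cell type markers named were chosen after their values were seen. Other members are named by their fold change and, where the block changes the call, its adjusted p.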

Additional observations from a re-analysis of the deposited data

Results flagged for a closer look

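In 104 groups of 4 samples (52 genes and 2 treatments), 7 had a sample farther from the others than the critical value of Dixon's test, and chance alone gives about 1 in 20. All 7 were IOX5 samples. Replicate 2 was low for *Seh1l* at 92.5 CPM (others 110.1 to 112.1), for *Kpna3* at 105.0 CPM (137.6 to 142.2) and for *Ipo11* at 53.7 CPM (69.5 to 70.5). Replicate 4 was low for *Tpr* at 411.2 CPM (440.8 to 445.5) and for *Kpna6* at 80.3 CPM (92.3 to 94.2). Replicate 3 was high for *Kpna1* at 148.5 CPM (135.4 to 137.4) and for *Tnpo2* at 165.4 CPM (151.4 to 153.8).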

How the results depend on the processing

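The median of the 52 genes was below 0 under every alternative run, and 49 to 52 of the genes were below 0. Their number called lower was 7, and it became 4 with upper-quartile factors, 1 with no filter on low counts (25386 genes tested), 23 with DESeq2, 29 with the replicate block, 0 within numbers 1 and 2 (where the median moved to -0.29) and 4 within numbers 3 and 4. With RLE factors it was 5. Leaving out 1 sample gave 0 to 13, and the block without number 1, 2, 3 or 4 gave 17, 24, 16 and 27. Over all genes, 155 were lower and 96 higher. These became 73 lower without the filter, 602 and 489 with DESeq2, 1170 and 1394 with the block, 0 and 0 within numbers 1 and 2, and 259 and 384 within numbers 3 and 4. Leaving out 1 sample gave 0 to 333 lower and 0 to 130 higher, and the block without number 1, 2, 3 or 4 gave 650, 1016, 403 and 1058 lower and 994, 1119, 642 and 1355 higher. In the 4 other transport lists, 2 genes were called lower, and this became 1 with RLE factors, upper-quartile factors or no filter, 9 with DESeq2, 10 with the block, 0 within numbers 1 and 2, 0 to 7 without 1 sample and 4, 7, 3 and 9 with the block without number 1, 2, 3 or 4. The block removed none of the 7 calls among the 52 genes.

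*Ipo4*, at a log2 fold change of 0.0026, ranged from -0.0780 (without DMSO replicate 3) to 0.0716 (without DMSO replicate 1) when 1 sample was left out. It was also below 0 without IOX5 replicate 1 (-0.0144) or 2 (-0.0410), within numbers 1 and 2 (-0.0591), and with the block without number 2 (-0.0109) or 3 (-0.0595). Within numbers 3 and 4, *Nup50* turned to 0.0569 and *Rangap1* to 0.0141. The causes of these changes were not tested. *Ipo4* and *Nup35* had the fewest reads, 1391 and 2043 over the 8 samples.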
